A study of Mus musculus with 6 samples.

Results

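The genes described here encode the calcium/calmodulin-dependent kinase CaMKII, the calcium/calmodulin-dependent phosphatase calcineurin, and the proteins that report or transmit calcineurin activity. They are 10 of the 24062 gene symbols in the count table, taken by symbol alone: the kinase genes Camk2a, Camk2b, Camk2d and Camk2g, the calcineurin subunit genes Ppp3ca, Ppp3cb and Ppp3r1, the calcineurin regulator Rcan1, and the NFAT transcription factor genes Nfatc3 and Nfatc4. RNA-seq was done on both heart ventricles of male C57/Bl6N mice at postnatal day 1. There were 3 libraries from Med12cKO mice, in which Cre was present (CrePOS) for a heart-restricted knockout of Med12, and 3 from control mice without Cre (CreNEG). Med12 belongs to the kinase module of Mediator, the complex through which transcription factors act on RNA polymerase II. The labels name neither the promoter that drives Cre nor the Med12 allele, and only the Med12cKO mice carried Cre, so effects of Cre and of Med12 loss cannot be told apart.

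CaMKII and calcineurin both read calcium through calmodulin. CaMKII is a multimeric kinase that holds its activity by autophosphorylation; in heart muscle it phosphorylates the ryanodine receptor and phospholamban, and it acts on class IIa histone deacetylases. Calcineurin pairs a catalytic A subunit with a calcium-binding B subunit and dephosphorylates NFAT factors, which then enter the nucleus. Rcan1 binds and modulates calcineurin and is itself transcribed from an internal promoter driven by NFAT, so it is widely used as a readout of calcineurin activity. Both pathways are known for their part in hypertrophic growth of the heart.

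None of the 10 genes changed detectably between Med12cKO and control ventricles. All 10 passed the filter on low counts, and 0 passed edgeR's quasi-likelihood test at an adjusted p under 0.05, where 3 of the 13629 genes tested did (0.022%). At an unadjusted p under 0.05 the 10 genes also gave 0, against 3.78% of all genes tested, and DESeq2 called 0 of the 10 over all genes (0.539% of the 11864 to which it gave an adjusted p). The 10 log2 fold changes (Med12cKO over control) ran from -0.21 for Camk2a to 0.52 for Camk2b, with a median of 0.038 against 0.0081 for all genes tested. 8 were above 0 and 2 below, where 52.2% of all genes tested were above 0. The groups did not overlap in 3 genes, Camk2a, Camk2b and Nfatc4, and in 8.23% of all genes tested. The design resolves these genes to different degrees: the 95% interval of the fold, from the standard error of the fit, ran from 0.848 to 1.18 for Ppp3r1 and from 0.679 to 1.5 for Nfatc3.

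**Figure D1:**
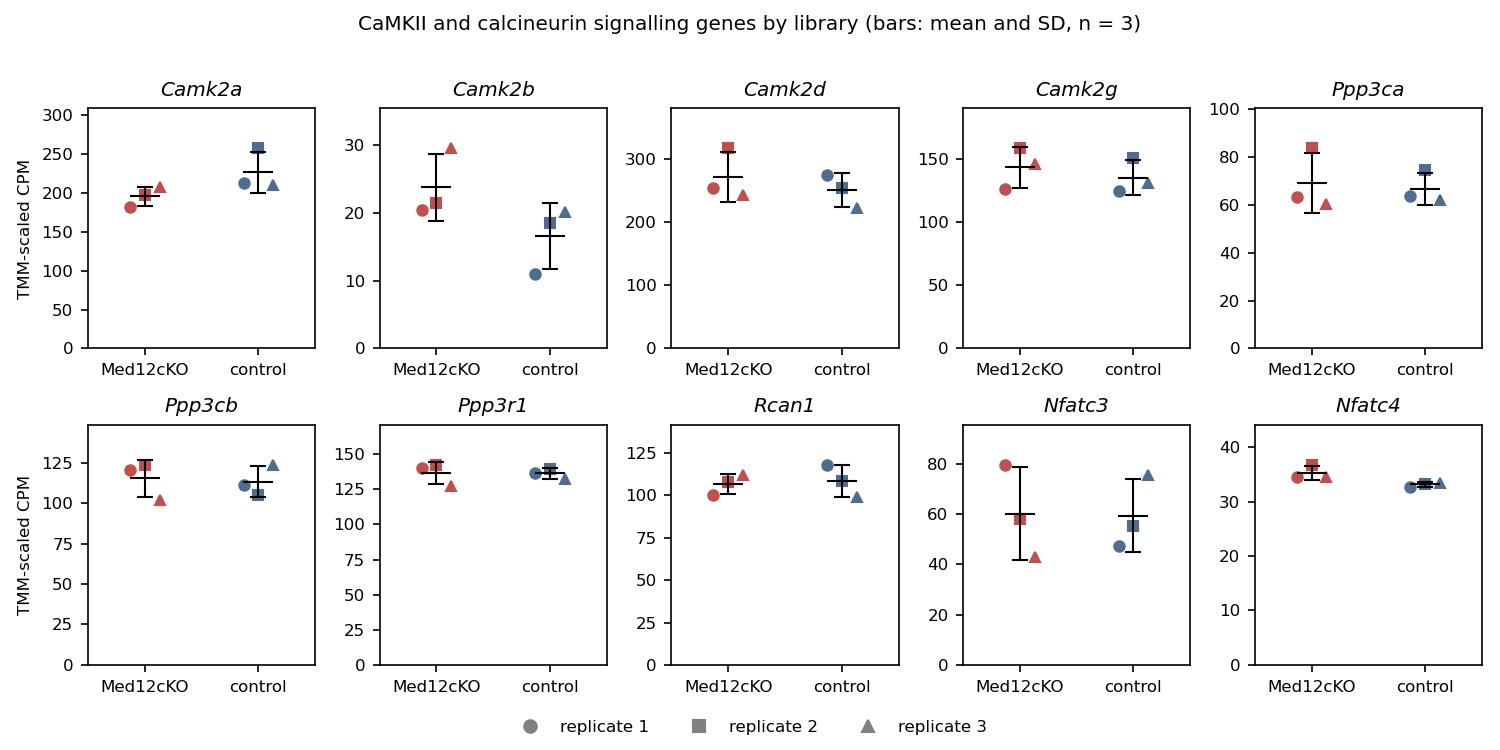
TMM-scaled CPM of the 10 genes in each library, one panel per gene, with a linear axis from 0; symbols mark the replicate, and bars the mean and SD of 3 Med12cKO and 3 control libraries. Camk2a lies lower, and Camk2b and Nfatc4 higher, in Med12cKO without overlap, and the other 7 genes overlap.

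Values are counts scaled by TMM and given as CPM, the usual scaling of counts to a common depth. Library totals ran from 8453346 to 10911698 counts, and the 10 genes had between 96 counts (Camk2b, control replicate 1) and 3211 (Camk2d, Med12cKO replicate 2), all far above 3 counts. Med12 itself measured 61.6, 85.0 and 41.3 CPM in Med12cKO replicates 1 to 3 and 103, 176 and 113 CPM in the controls, with a Med12cKO mean at 47.9% of the control mean (exact two-sided permutation p = 0.10, the smallest that 3 against 3 allow; edgeR adjusted p = 0.765). The 7 cardiomyocyte markers, among them Myh6, Tnnt2 and Actc1, were abundant in all libraries; they summed to 31420 to 39380 CPM in Med12cKO and 37380 to 47860 CPM in control, and 7 of 7 had a negative log2 fold change (median -0.26) with 0 past the test. The 6 smooth muscle and pericyte markers summed to 1333, 1937 and 1170 CPM in Med12cKO replicates 1 to 3 and 1206, 762 and 655 CPM in the controls, with 5 of 6 above 0 (median log2 fold change 0.59) and 3 of 6 higher at an unadjusted p under 0.05. Cnn1, the calponin gene of that list, was among the 3 genes past edgeR's test, at 74.9, 116 and 84.7 CPM in Med12cKO and 34.2, 23.9 and 27.2 CPM in control (log2 fold change 1.70, SE 0.20; adjusted p = 0.046, edgeR). Its log2 fold change stayed between 1.49 and 1.85 in the 15 alternatives, but the edgeR call was lost in 7 of them: without Med12cKO replicate 3 or any one control (adjusted p from 0.174 to 0.276), with the replicate block (0.175), with DESeq2's size factors (0.0505) and with the length and GC trend removed (0.0976). The endothelial, fibroblast, macrophage, Schwann and erythroid lists had 0 genes past the test, with medians from -0.45 for macrophage to 0.60 for Schwann markers. Fewer cells of a type and less RNA per cell cannot be told apart in such bulk samples, and the part of these differences in the values below was not tested. A pair of libraries stood apart. Med12cKO replicate 1 and control replicate 3 averaged 78.9 and 78.7 CPM over 10 T-cell and thymus genes, against 0.414 and 0.495 CPM in the other Med12cKO libraries and 0.541 and 0.334 CPM in the other controls. Lung markers summed to 75.7 CPM in Med12cKO replicate 2 and 48.6 CPM in control replicate 1 and to at most 0.564 CPM in the other 4 libraries, and both of these have a description that starts with J.

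Camk2d encodes the delta isoform, known as the main CaMKII of heart muscle. The gene lies on chromosome 3 (126596302 to 126846326, plus strand; GRCm38, as for all positions here). It had the highest mean CPM of the 10 genes in each group, with 254, 317 and 243 CPM in Med12cKO replicates 1 to 3 and 276, 255 and 223 CPM in control replicates 1 to 3. The groups overlapped, with the highest value in Med12cKO replicate 2 and the lowest in control replicate 3. The log2 fold change was 0.11 (SE 0.14; adjusted p = 0.9999, edgeR), with a 95% interval of the fold from 0.864 to 1.35. Without Med12cKO replicate 2 it was -0.015. Camk2g, the gamma isoform, which is expressed in many tissues (chromosome 14, 20734875 to 20794088, minus strand), had 126, 158 and 146 CPM in Med12cKO and 125, 151 and 131 CPM in control. These values interleaved as well, at a log2 fold change of 0.085 (SE 0.13).

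Camk2a (chromosome 18, 60925618 to 60988152, plus strand) encodes the alpha isoform, best known as an abundant kinase of excitatory neurons. In muscle an internal promoter of this gene is known to give alphaKAP, a protein without the kinase domain that anchors CaMKII at the sarcoplasmic reticulum. Camk2a measured 182, 197 and 207 CPM in Med12cKO replicates 1 to 3 and 213, 257 and 210 CPM in the controls. Each Med12cKO library lay below each control, but the highest Med12cKO value was 207 CPM and the lowest control value 210 CPM. The log2 fold change was -0.21 (SE 0.13; adjusted p = 0.9999 and unadjusted p = 0.124, edgeR), with a 95% interval of the fold from 0.708 to 1.05. It kept a negative sign in all 15 alternatives run, from -0.27 to -0.11. In GENCODE M21, 2 of the 6 coding transcript models of Camk2a begin past the middle of the gene, up to 38.0 kb after the first start. The table gives 1 count per gene, so full-length kinase and alphaKAP transcripts were not separated.

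Camk2b (chromosome 11, 5969644 to 6066362, minus strand), the beta isoform, is known from brain and, at lower levels, from skeletal muscle. It was the least abundant of the CaMKII genes, with 20.4, 21.4 and 29.5 CPM in Med12cKO replicates 1 to 3 and 11.05, 18.5 and 20.2 CPM in the controls. The groups met at 20.4 CPM in Med12cKO and 20.2 CPM in control, and control replicate 1 and Med12cKO replicate 3 were the extremes. Its log2 fold change of 0.52 (SE 0.24) was the largest in size among the 10 genes and did not pass the test (adjusted p = 0.9999 and unadjusted p = 0.062, edgeR), and the 95% interval of the fold ran from 0.978 to 2.09. The value was 0.300 without control replicate 1, 0.330 without Med12cKO replicate 3 and 0.773 without the 2 libraries with T-cell transcripts. The 6 neuronal markers summed to 20.6, 32.8 and 12.9 CPM in Med12cKO replicates 1 to 3 and 19.6, 20.9 and 12.1 CPM in control, and 5 of 5 tested members had a log2 fold change above 0 (median 0.40). Med12cKO replicate 3, highest in Camk2b, was lowest in neuronal markers of its group. Of 11 skeletal muscle markers 9 were tested and 8 had a positive log2 fold change (median 1.38); the list summed to 2084, 1864 and 3017 CPM in Med12cKO and 2791, 2601 and 2138 CPM in control, mostly Ckm, which heart muscle also expresses. Mylpf, a fast skeletal light chain gene, was highest in Med12cKO replicate 1, at 43.4 CPM, with 7.30 and 5.6 CPM in the other two, against 4.83, 5.15 and 6.22 CPM in control. Camk2b was lowest of its group in Med12cKO replicate 1, where Mylpf was highest. The part of either cell type in the Camk2b values was not tested.

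**Figure D2:**
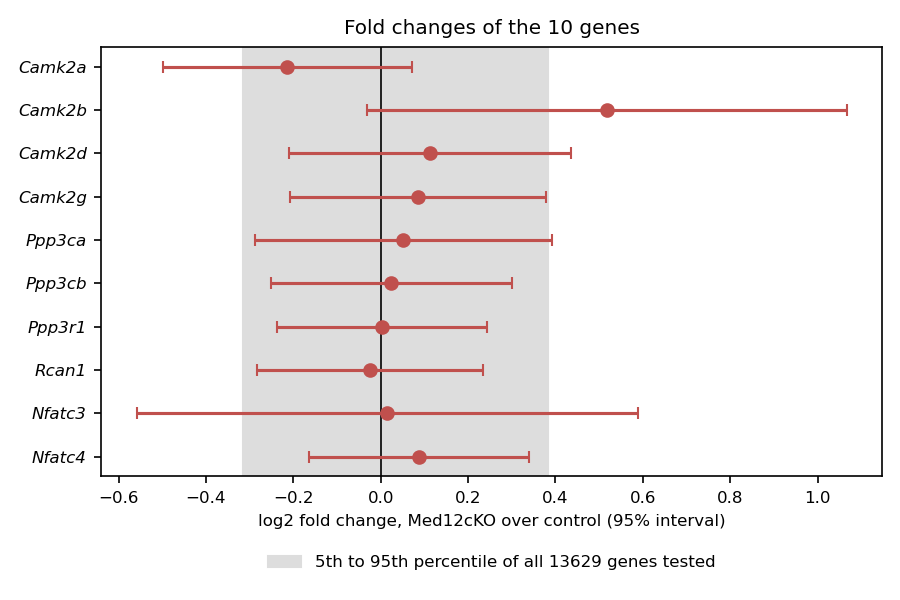
Log2 fold changes of the 10 genes, Med12cKO over control, as points with 95% intervals from the edgeR fit; the grey band spans the 5th to the 95th percentile of all 13629 genes tested, from -0.32 to 0.38. Every interval includes 0, and Camk2b alone has its point outside the band.

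The make-up of the CaMKII family was compared on a scale that divides each CPM by the gene's exon length. Per kb of exon, Camk2a measured 26.2 ± 1.72 in Med12cKO and 30.4 ± 3.56 in control (CPM per kb, SD, n = 3 each), and Camk2g 22.4 ± 2.54 and 21.2 ± 2.14. Camk2d measured 12.1 ± 1.77 in Med12cKO and 11.2 ± 1.17 in control, and Camk2b 2.61 ± 0.545 and 1.82 ± 0.532. On this length the ranges of Camk2a and Camk2g met in Med12cKO (24.4 to 27.8 and 19.7 to 24.8 CPM per kb) and not in control. By the median basic coding transcript they met in neither group, at 105 to 120 and 35.2 to 44.2 CPM per kb in Med12cKO. Camk2d has 22.49 kb of annotated exon, against 5524 bases in its longest basic coding transcript, so its place depends on the length used: by the median basic coding transcript it measured 65.1 ± 9.55 CPM per kb in Med12cKO and 60.2 ± 6.33 in control, above Camk2g at 40.1 ± 4.53 and 37.8 ± 3.82. On both lengths Camk2a was the highest of the 4 genes and Camk2b the lowest in every library. The place of Camk2a depends on the length too: its median basic coding transcript is 1.73 kb and its longest 4970 bases. With no length, Camk2d had the higher mean CPM, at 271 against 196 in Med12cKO and 251 against 227 in control.

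As a share of the 4 genes per kb of exon, Camk2a made up 42.3%, 39.1% and 43.0% in Med12cKO replicates 1 to 3 and 46.4%, 48.3% and 46.3% in the controls. The groups did not overlap in this share, also when counts with no length or the median coding transcript were used, and the means differed by -5.57 percentage points (Med12cKO minus control). Camk2g made up 34.2%, 36.6% and 35.3% in Med12cKO and 31.7%, 33.0% and 33.7% in control, without overlap. By counts with no length its groups did overlap, at 21.7%, 22.8% and 23.4% in Med12cKO and 19.96%, 22.1% and 22.4% in control. The shares of Camk2d (16.7% to 20.8% in Med12cKO, 15.9% to 19.9% in control) and Camk2b (3.47% to 5.0% in Med12cKO, 1.97% to 3.65% in control) overlapped. Shares within a family move together by construction, and these were not tested.

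**Figure D3:**
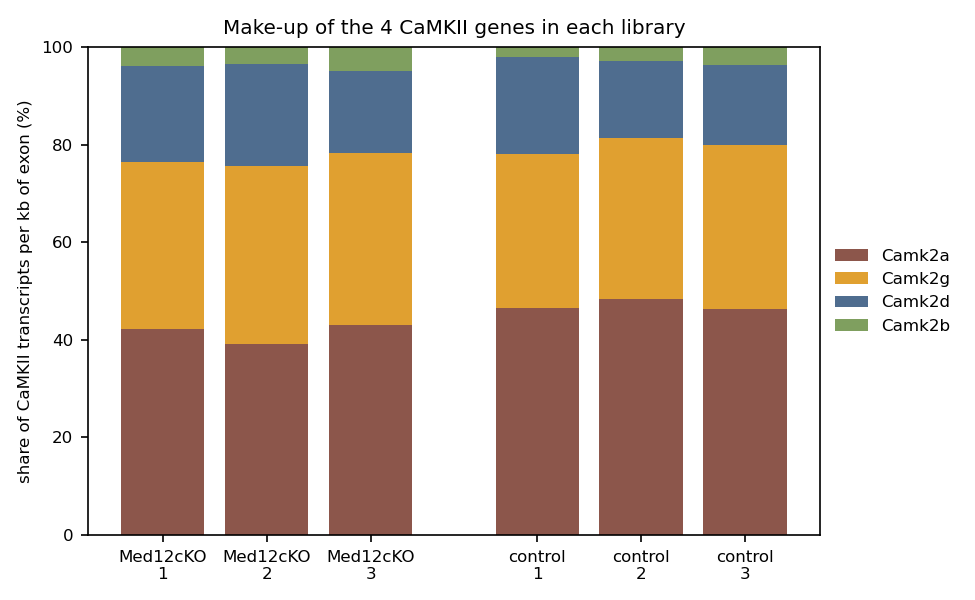
Share of each CaMKII gene in the summed level of the 4 genes, in CPM per kb of exon, as stacked bars that add to 100% in each library. Camk2a takes 39.1% to 43.0% in the Med12cKO libraries and 46.3% to 48.3% in the controls.

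Calcineurin subunits stood close together in the 2 groups. Ppp3ca, the catalytic A-alpha subunit (chromosome 3, 136670124 to 136937727, plus strand), measured 63.4, 83.6 and 60.3 CPM in Med12cKO replicates 1 to 3 and 63.5, 74.5 and 61.9 CPM in the controls, with replicate 2 highest in each group. Its log2 fold change was 0.052 (SE 0.15), and -0.11 without Med12cKO replicate 2. Ppp3cb, the A-beta subunit (chromosome 14, 20499364 to 20546573, minus strand), measured 120, 123 and 102 CPM in Med12cKO and 111, 105 and 124 CPM in control, with the lowest value in Med12cKO replicate 3 and the highest in control replicate 3 (log2 fold change 0.024, SE 0.12). A-beta is the catalytic isoform tied to hypertrophy in mouse knockouts. Ppp3ca was 34.5% ± 2.86 of the summed level of both catalytic genes per kb in Med12cKO and 34.2% ± 3.96 in control (SD, n = 3 each).

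Ppp3r1 (chromosome 11, 17159263 to 17200375, plus strand), the calcium-binding B subunit, was the steadiest of the calcineurin genes. It had 140, 142 and 127 CPM in Med12cKO and 137, 140 and 132 CPM in control, means of 137 ± 8.06 and 136 ± 3.77 CPM (SD, n = 3 each). The log2 fold change was 0.0024 (SE 0.11), and the 95% interval of the fold from 0.848 to 1.18 gives the range of folds these libraries leave possible. In GENCODE M21, 14.3% of the exon bases of Ppp3r1 are also annotated to Wdr92 on the same strand, and how reads in that stretch were counted is unknown.

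Rcan1 (chromosome 16, 92391953 to 92470867, minus strand) has 2 start sites in RefSeq, and the windows before them are printed because the count of Rcan1 adds transcripts from both. The 250 bases before each start are on the minus strand of chromosome 16 (GRCm38.p6, from RefSeq). The first is the window before the internal start (chr16:92400079-92400328) and the second that before the upstream start (chr16:92466170-92466419), with the core NFAT motif GGAAA or its complement TTTCC in capitals.
Rcan1 internal start: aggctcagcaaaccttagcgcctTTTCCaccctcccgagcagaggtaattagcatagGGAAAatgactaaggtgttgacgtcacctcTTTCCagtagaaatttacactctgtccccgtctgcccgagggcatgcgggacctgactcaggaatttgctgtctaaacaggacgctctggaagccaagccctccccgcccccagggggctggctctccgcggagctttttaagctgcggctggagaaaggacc
Rcan1 upstream start: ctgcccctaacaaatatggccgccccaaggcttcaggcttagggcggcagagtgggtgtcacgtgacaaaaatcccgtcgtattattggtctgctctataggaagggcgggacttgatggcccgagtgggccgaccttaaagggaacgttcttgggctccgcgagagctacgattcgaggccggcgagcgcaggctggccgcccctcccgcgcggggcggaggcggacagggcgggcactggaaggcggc

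The internal window held 3 matches to the core motif and the upstream window 0, with both strands searched and no other motif looked for. Bases just after the internal start were found in a GENCODE M21 transcript of Rcan1, and those just after the upstream start were not. Of 32851 RefSeq windows of the same length, 55.6% held at least 1 match and 6.39% held 3 or more, so the motif is common and a match is no evidence of binding. Windows on chromosome 18, where Camk2a lies, were left out for the 10 genes but not for the 32851 windows. Of the 10 genes 7 had a window that was searched, 9 windows in all. The Nfatc4 and Ppp3cb windows also held 3 matches each, Camk2d had 1, one of the 2 Nfatc3 windows had 1, and Camk2b and Ppp3r1 had 0.

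Rcan1 measured 99.9, 108 and 112 CPM in Med12cKO replicates 1 to 3 and 118, 108 and 99.2 CPM in the controls. The lowest and the highest of the 6 values were both controls, and the Med12cKO libraries lay between them. The log2 fold change was -0.025 (SE 0.11; adjusted p = 0.9999, edgeR), with a 95% interval of the fold from 0.822 to 1.18. With 1 count per gene, transcripts from the NFAT-driven internal start and the upstream start were not separated.

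NFAT factors carry the calcineurin signal to the nucleus. Nfatc4 (chromosome 14, 55823144 to 55833943, plus strand) was nearly level, with 34.5, 36.7 and 34.4 CPM in Med12cKO replicates 1 to 3 and 32.7, 33.2 and 33.5 CPM in the controls. The groups did not overlap, but the gap was small: the lowest Med12cKO value was 34.4 CPM and the highest control value 33.5 CPM. Its log2 fold change was 0.088 (SE 0.11; adjusted p = 0.9999 and unadjusted p = 0.453, edgeR), with a 95% interval of the fold from 0.892 to 1.27.

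Nfatc3 (chromosome 8, 106058840 to 106130537, plus strand) is an NFAT factor of heart muscle that is also prominent in developing T cells. Its highest library stood 1.86-fold above its lowest among Med12cKO and 1.6-fold among controls, the widest ranges of the 10 genes apart from Camk2b in the controls (1.83-fold). It measured 79.5, 58.1 and 42.7 CPM in Med12cKO replicates 1 to 3 and 47.3, 55.4 and 75.6 CPM in the controls. The highest library of each group was the one with T-cell transcripts, in which 10 T-cell and thymus genes, Cd3d, Cd8a, Lck and Rag1 among them, summed to 789 CPM in Med12cKO replicate 1 and 787 CPM in control replicate 3. In the other libraries that list summed to 4.14 and 4.95 CPM in Med12cKO and 5.41 and 3.34 CPM in control. Cd3g was at 0 in Med12cKO replicate 2 and control replicate 2. The log2 fold change of Nfatc3 was 0.015 (SE 0.25). With a term for these 2 libraries it was 0.008 with a smaller standard error of 0.15. Without them the fold change was -0.031 (SE 0.22), from 58.1 and 42.7 CPM in Med12cKO and 47.3 and 55.4 CPM in control. Without Med12cKO replicate 1 alone it was -0.25, and without control replicate 3 alone 0.23, neither past the test. The part of T-cell transcripts in the Nfatc3 values was not tested. Nfatc3 shares 1.87% of its exon bases with Esrp2 on the opposite strand.

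**Figure D4:**
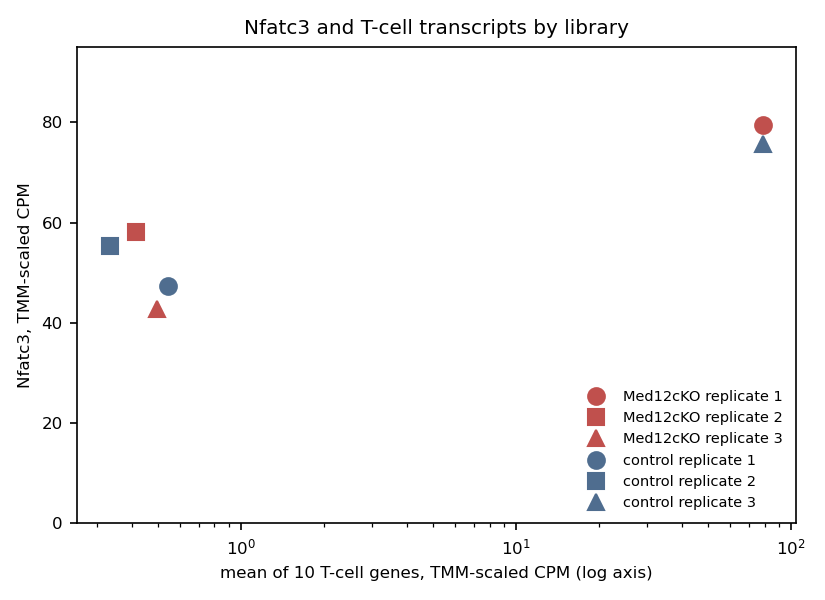
TMM-scaled CPM of Nfatc3 (linear axis) against the mean CPM of 10 T-cell and thymus genes (log axis) in each library, red for Med12cKO and blue for control. Med12cKO replicate 1 and control replicate 3 sit at the upper right, at 79.5 and 75.6 CPM of Nfatc3, and the other 4 libraries between 42.7 and 58.1 CPM.

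Within the letter that opens the sample descriptions, whose meaning the labels do not give, the 10 genes were compared again on log2 CPM. Camk2a differed by -0.26 in the letter I libraries (2 Med12cKO, 2 control) and by -0.11 in letter J (1 and 1), and Camk2b by 0.35 and 0.96. Nfatc4 differed by 0.047 in letter I and 0.17 in letter J. Camk2d was also above 0 in both (0.061 and 0.20), while the other 6 genes changed sign between the letters, with Ppp3ca at -0.14 in letter I and 0.40 in letter J.

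Other genes of the pathways were read from lists of the same fit. Calmodulin and the related kinases had 10 of 11 members tested, with 0 higher and 0 lower past edgeR's test; 9 were above 0, and the median log2 fold change was 0.17 against 0.0081 for all genes tested. At an unadjusted p under 0.05 there was 1 member in each direction, and of all genes tested 52.2% were above 0 and 3.78% had such a p. Camk1d, a CaM kinase I gene, measured 26.0, 28.3 and 14.4 CPM in Med12cKO and 35.8, 44.1 and 34.8 CPM in control, without overlap (log2 fold change -0.74, SE 0.24; adjusted p = 0.882, edgeR). Camk1, a second gene of that kinase class, measured 90.3, 91.3 and 107 CPM in Med12cKO and 83.5, 81.4 and 68.6 CPM in control, also without overlap (log2 fold change 0.31, SE 0.13; adjusted p = 0.9999). Pnck, likewise a CaM kinase I gene, was at 0.34 (SE 0.19). Camk4, a CaM kinase of T cells and neurons, was at 32.3 and 27.1 CPM in Med12cKO replicate 1 and control replicate 3. In the other 4 libraries it was between 1.40 and 2.19 CPM. Camkk1 was at 9.13 and 8.42 CPM in Med12cKO replicate 1 and control replicate 3, and at most at 3.16 CPM elsewhere. Both count among the 9 above 0, at log2 fold changes of 0.16 (SE 1.74) and 0.047 (SE 0.70). Camk4 and Camkk1 were named after their values were seen.

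Inhibitors and anchors of CaMKII had 5 of 8 members tested, 0 past the test and a median of 0.10. The kinase inhibitor gene Camk2n1 measured 30.7 ± 6.30 CPM in Med12cKO and 28.6 ± 3.23 CPM in control (SD, n = 3 each), and Actn4 and Dlg1 had log2 fold changes of 0.23 (SE 0.13) and 0.11 (SE 0.11). The other calcineurin and NFAT genes had 8 of 9 members tested, 0 past the test, 4 above and 4 below 0 and a median of -0.015. Rcan2, a relative of Rcan1 named after its values were seen, measured 250.3 ± 12.8 CPM in Med12cKO and 249.8 ± 19.9 CPM in control. Nfatc1, Rcan3 and Nfatc2 had log2 fold changes of -0.23, 0.14 and 0.10. The list drawn up for calcineurin anchors and inhibitors and the kinases that act against NFAT had 15 of 15 tested, 0 past the test, and a median of -0.027. Whether each of its members, Akap7 among them, binds calcineurin was not checked. The smallest p in that list belonged to Csrp3, a Z-disc LIM protein that binds calcineurin (log2 fold change -0.34, SE 0.18), Akap7, an anchoring protein gene (-0.23, SE 0.13), and Homer2, a scaffold gene (0.15, SE 0.13).

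Known CaMKII substrates of heart muscle had 13 of 13 members tested and 0 past edgeR's test over all genes. Of these, 12 were below 0, where 47.8% of all genes tested were, and the median was -0.17. DESeq2 called 2 lower, Ryr2 and Pln, against 0.278% of the genes to which it gave an adjusted p. Ryr2, the calcium release channel, measured 665, 898 and 711 CPM in Med12cKO and 1211, 1458 and 1229 CPM in control (log2 fold change -0.78, SE 0.16; adjusted p = 0.300 in edgeR and 1.0e-04 in DESeq2). Pln, phospholamban, measured 2581, 2732 and 3173 CPM in Med12cKO and 5108, 4739 and 4523 CPM in control (log2 fold change -0.76, SE 0.16; adjusted p = 0.300 in edgeR and 2.5e-07 in DESeq2). Of the exon bases of Pln, 64.7% are also annotated to gene models on the opposite strand, and whether counting used strand is unknown. Mef2d, a transcription factor gene, was at -0.28 (SE 0.17). The cardiomyocyte markers given above had a median of -0.26, and the part of that in this list was not tested.

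Genes known as calcineurin-NFAT targets in heart muscle did not move one way. Of 10 members 8 were tested, 4 above and 4 below 0, with a median of 0.028 and 0 past edgeR's test. DESeq2 called 2 higher, Acta1 and Nppb, against 0.261% of the genes to which it gave an adjusted p. Nppb, a natriuretic peptide gene, measured 73.9, 113 and 62.1 CPM in Med12cKO and 54.8, 27.6 and 33.7 CPM in control (log2 fold change 1.11, SE 0.31; adjusted p = 0.758 in edgeR and 0.026 in DESeq2). Acta1, skeletal actin, measured 232, 86.9 and 109 CPM in Med12cKO and 56.0, 51.2 and 39.6 CPM in control (log2 fold change 1.54, SE 0.40; adjusted p = 0.709 in edgeR and 3.0e-04 in DESeq2), with its highest value in the library highest in Mylpf. In the other direction stood Vegfa, an angiogenic growth factor gene, at 247, 287 and 251 CPM in Med12cKO and 366, 389 and 306 CPM in control (log2 fold change -0.43, SE 0.13; adjusted p = 0.776 in edgeR and 0.153 in DESeq2). Myh7, the slow myosin heavy chain gene, was named after its values were seen, at 1233, 1799 and 2475 CPM in Med12cKO and 3575, 6782 and 2688 CPM in control (log2 fold change -1.24, SE 0.39; adjusted p = 0.882 in edgeR and 0.705 in DESeq2), and 13.3% of its exon bases are shared with antisense models. In each of these 4 genes, which were named for a small p or after their values were seen, the groups did not overlap; over all genes tested 8.23% did not.

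**Figure D5:**
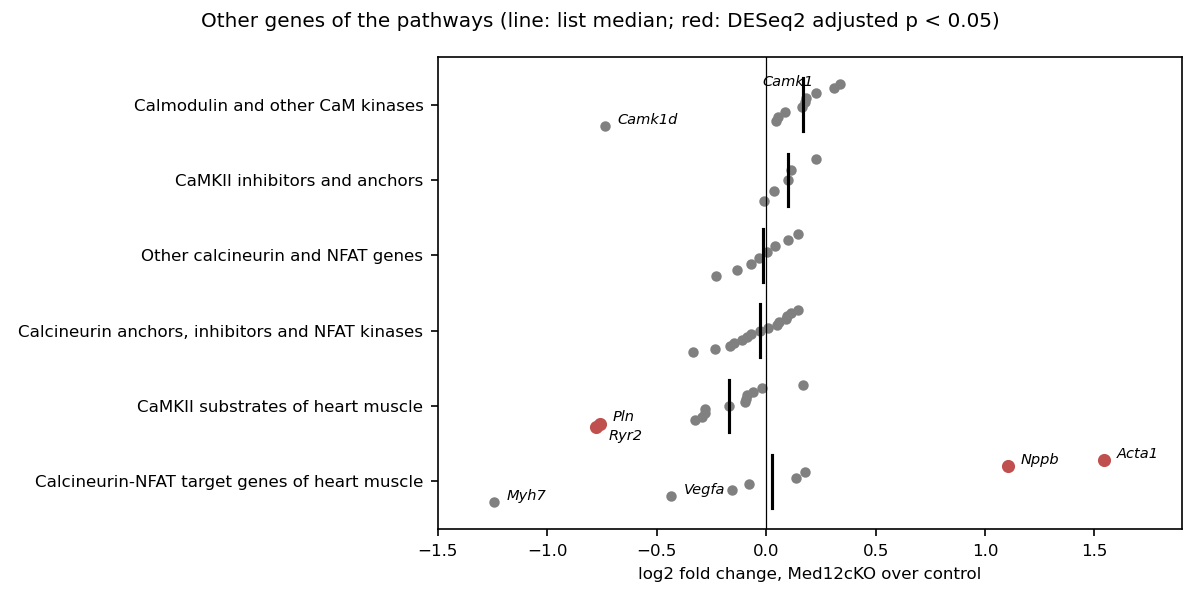
Log2 fold changes, Med12cKO over control, of the tested genes of 6 lists around CaMKII and calcineurin, 1 point per gene with the list median as a vertical line; red points passed DESeq2 over all genes, and names mark an unadjusted edgeR p under 0.05. The medians lie between -0.17 for CaMKII substrates and 0.17 for calmodulin and related kinases, and none of the points passed edgeR over all genes.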

How the data were processed

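Sample titles gave the group and replicate of each library. The deposited values are raw counts of reads per gene symbol with no normalization. Per the submitters' processing notes, TopHat2 2.0.0, featureCounts and edgeR 3.14.0 were used with build GRCm38 (mm10); the annotation and strand setting are not given in the sources used here. The labels do not tie libraries to single animals, so p-values reflect only the spread among these samples. Counts of library pairs within a group differed by 14.5 to 29.3 chi-square per degree of freedom, so none was a repeat run.

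The test was the edgeR 4.0.16 quasi-likelihood F test with robust dispersion (R 4.3.3), TMM scaling, filterByExpr (minimum count 10, minimum total 15) and Benjamini-Hochberg adjustment over all genes tested, at 0.05. DESeq2 1.42.0 was an alternative; its undefined adjusted p-values were kept undefined. Standard errors are log2 fold changes over the square root of F, and 95% intervals use the total degrees of freedom. Lengths and positions come from GENCODE M21 (GRCm38). The fits were tested on simulated counts.

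Members and lists were chosen with earlier results of these data known. Named genes are the members, Med12, and, per pathway list, those past edgeR or DESeq2 and the 3 with the smallest p. Rcan2, Camk4, Camkk1, Myh7 and the marker genes were named after their values were seen. Alternatives were other scalings, no low-count filter, DESeq2, the replicate block, terms for the description letter and for T-cell transcripts (10 T-cell genes averaging at least 10 CPM), an exon length and GC trend, and leaving out libraries. Other lengths for shares were chosen after seeing the data. Results for some single genes are left out of the text.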

Additional observations from a re-analysis of the deposited data

How the results depend on the processing

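In the 15 alternatives run, 0 of the 10 genes passed the threshold; the lowest adjusted p of any was 0.675 (Camk2a, without Med12cKO replicate 3). Camk2a, Camk2b, Camk2g and Nfatc4 kept their sign in all 15, and Camk2b ranged from 0.300 to 0.773. The sign of values near 0 turned for Rcan1 with library totals only (0.006), for Ppp3r1 (-0.043) and Nfatc3 (-0.031) without the libraries with T-cell transcripts, and for Ppp3r1 with the length and GC trend removed (-0.008). With 1 library left out, the fold changes ran from -0.028 to 0.102 for Ppp3cb, -0.11 to 0.141 for Ppp3ca, -0.03 to 0.047 for Ppp3r1, -0.087 to 0.04 for Rcan1, -0.251 to 0.225 for Nfatc3 and -0.015 to 0.185 for Camk2d. The cause of these turns was not tested. Camk2b had an unadjusted p under 0.05 in 4 alternatives: the replicate block (0.543), the description letter as a term (0.557), without the libraries with T-cell transcripts (0.773) and without control replicate 3 (0.678). DESeq2 called 64 genes against 3 in edgeR, and 1 to 3 were called with 1 library left out, the lowest without Med12cKO replicate 3. Med12 passed in DESeq2 alone (log2 fold change -1.06, adjusted p = 0.023). The Camk2g share differed by 1.12 points in counts with no length and 1.46 by median coding transcript, against 2.60 points per kb of exon. Between libraries of the same replicate number, deviations from the group means correlated at -0.31, 0.44 and -0.35. The largest correlation, 0.708, joined Med12cKO replicate 1 and control replicate 3, which both hold T-cell transcripts. With 3 libraries a group these values cannot show whether the numbers pair the samples. With the replicate block 2 genes were called over all genes and 0 of the 10. The block lowered the SE of Med12 from 0.303 to 0.15 and of Camk2b from 0.244 to 0.185, and raised that of Nfatc3 from 0.249 to 0.395. With library totals only, 60.4% of all genes tested were above 0, against 52.2% with TMM. Among the 10 genes the lowest count behind a fold change was 96, for Camk2b in control replicate 1. Camk4 and Camkk1, outside the 10, rest on lower levels, down to 1.40 and 1.94 CPM in Med12cKO replicate 3. With 3 libraries a group, every interval is limited.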
